A study of Mus musculus with 50 samples.

Results

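DN-Clim mammary epithelium was profiled on 6 arrays at 10 weeks of age and 6 arrays at 8 weeks, 12 of the 50 arrays of the series. The 12 were taken by genotype and age from the sample labels. At each age they were 3 terminal end buds (TEBs), the tips of the ducts, and 3 ducts, cut by laser from frozen sections of the number 4 and number 9 glands. DN-Clim mice carry a transgene in which the keratin 14 promoter, active in the basal layer, drives the LIM interaction domain of Clim with a nuclear localization signal and a Myc tag. WT littermates without it gave 2 TEB and 2 duct arrays at each of these ages, and all mice were on the CB6F1 background. TEB and duct arrays of 1 age and replicate number deviated together, so the 12 arrays were treated as 6 DN-Clim mice, 3 per age. The study compared littermates within an age, so age cannot be told apart from litter or from the day of dissection.

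The mouse gland grows through puberty from TEBs, whose dividing cells lay down ducts of an inner luminal and an outer basal layer, and growth slows as the ducts fill the fat pad. The ages of the series span puberty up to early adulthood, and 10 and 8 weeks are the last of them. Clims, encoded by Ldb1 and Ldb2, have no DNA binding domain of their own and join LIM homeodomain and LIM-only proteins into transcription complexes, and the dominant-negative fragment competes with them. The question of the comparison is which genes of this epithelium differ between these last ages, and whether the change is that of WT littermates.

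Captured epithelium carried both layers. Basal Krt14 ranged from 1093 to 1627 at 10 weeks and from 931 to 2057 at 8 weeks, and luminal Krt8 from 8139 to 14251 at 10 weeks and from 5845 to 11399.5 at 8 weeks. The mean log2 level of 16 basal myoepithelial genes lay between 9.85 and 10.25 at 10 weeks and between 9.55 and 10.41 at 8 weeks, and that of 13 pan-luminal genes between 11.22 and 11.65 at 10 weeks and between 10.80 and 11.54 at 8 weeks. Fat-cell transcripts were also strong. The mean log2 level of 16 adipocyte genes was 11.20 to 12.22 on the 12 captured arrays, against 7.88 to 7.97 in sorted DN-Clim basal cells and 7.07 to 7.51 in sorted DN-Clim luminal cells at 10 weeks (2 arrays each). Median intensity over all probe sets ranged from 194 to 218 on the 12 arrays and from 124 to 129.7 on the 4 sorted DN-Clim arrays, so sorted levels lie lower overall and are given side by side only. Every value below is a probe set intensity or its log2, and intensities of different genes are not on 1 scale.

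Of 13362 genes tested, 5 were higher at 10 weeks (0.0374%) and 4 were lower (0.0299%) over TEBs and ducts (limma with the mouse as a random block, adjusted p under 0.05). The 5 were Mfsd2a, Ly6e, Per2, Nnat and Cry1. The 4 were Aspg, Nat8l, Col5a3 and Ftl1. All 9 changed the same way in TEBs and in ducts, and for each the 6 arrays at 10 weeks lay clear of the 6 at 8 weeks. Such separation was seen for 90 genes above (0.674%) and 181 below (1.35%) among all genes. At an unadjusted p under 0.05, 483 genes were higher (3.61%) and 930 lower (6.96%), and the median change of all genes was -0.01 on the log2 scale. With the mean of TEB and duct per mouse, 3 against 3, limma called 0 genes, with 316 higher and 676 lower at an unadjusted p under 0.05. Ly6e and Aspg passed without each of the 12 arrays and each of the 6 mice in turn. Mfsd2a, Col5a3 and Ftl1 passed without 12, 11 and 11 of the 12 arrays, while Cry1, Nat8l, Nnat and Per2 passed without 3, 2, 1 and 1 of them and so sit at the edge of the test. With each of the 6 mice left out in turn, Mfsd2a and Col5a3 passed 5 times, Ftl1 4 and Cry1 3. Nnat then passed 2 times, and Nat8l and Per2 1 time each, so single mice undo these 7 calls. Without the block limma called 244 genes, and it called 9 with it, so the number of calls depends on how the pairs of arrays from 1 mouse are counted.

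**Figure D1:**
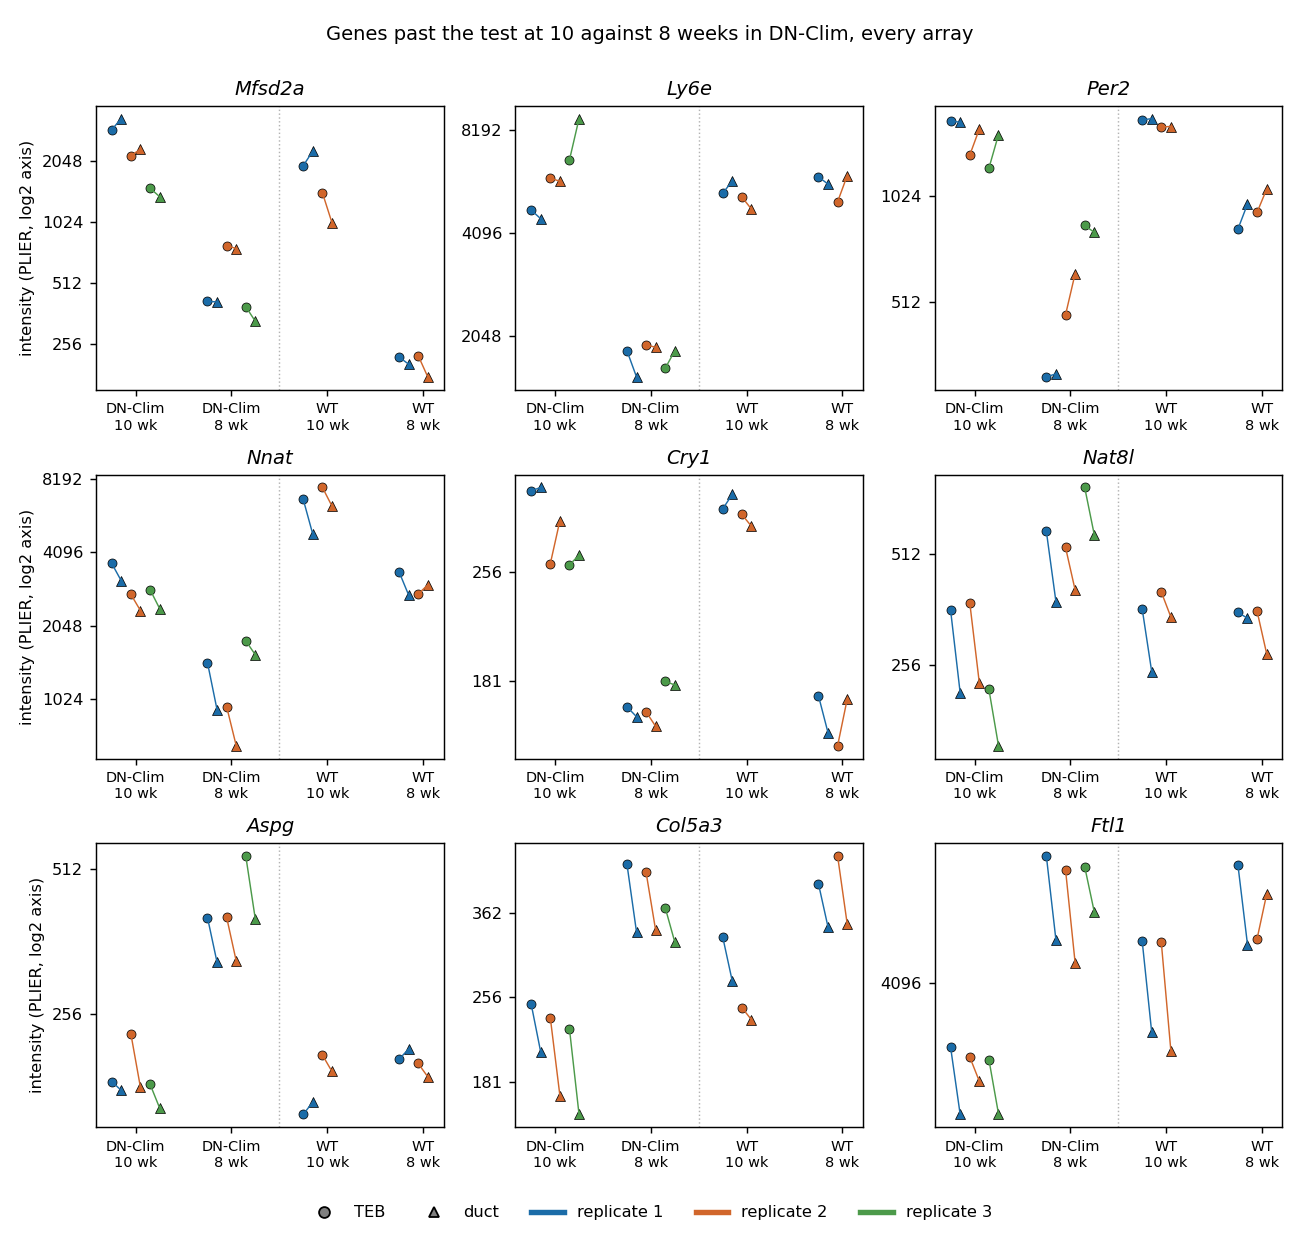
Intensity (log2 axis) of the 9 genes past the test on every DN-Clim and WT array at 10 and 8 weeks. Circles are TEBs, triangles are ducts, colours are replicate numbers and lines join the TEB and duct of 1 number. In each panel the 6 DN-Clim arrays at 10 weeks lie wholly above or wholly below the 6 at 8 weeks.

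Mfsd2a, which encodes a transporter of lysophospholipids carrying long-chain fatty acids, had the largest increase of the 5. TEBs read 2940.4, 2191 and 1512 at 10 weeks and 416, 786 and 392 at 8 weeks, in order of replicate number. Ducts read 3334, 2352 and 1372 at 10 weeks and 414, 759 and 332 at 8 weeks. The lowest array at 10 weeks was thus above the highest at 8 weeks, replicate 2 being the highest of its age at 8 weeks. The log2 change was 2.16 ± 0.27 (SE), a 4.46-fold increase (limma, adjusted p = 0.00777). In WT littermates Mfsd2a was 1019 to 2304 at 10 weeks and 176 to 225 at 8 weeks, and it rose by 2.96 ± 0.35 on the log2 scale (adjusted p = 7.63e-04). The 8 week level was the low one of the series in both genotypes, since DN-Clim arrays read 632 to 1851 at 4 weeks, 1007 to 2620.3 at 6 weeks, 332 to 786 at 8 weeks and 1372 to 3334 at 10 weeks. Sorted cells of both layers held it, at 2435 and 3495 in basal and 2383 and 3864 in luminal arrays.

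Ly6e, a cell surface protein of the Ly6 family held by a lipid anchor, had the lowest adjusted p. TEBs read 4785, 5929 and 6701 at 10 weeks and 1862, 1934 and 1655 at 8 weeks. Ducts read 4515, 5807 and 8842 at 10 weeks and 1561, 1905 and 1861 at 8 weeks. The 6 arrays at 8 weeks stood close together and far below those at 10 weeks, with a log2 change of 1.73 ± 0.17 (adjusted p = 0.00132). DN-Clim arrays read 4217 to 6419 at 4 weeks and 4317 to 6887 at 6 weeks, so here too the 8 week mice were the low ones. WT littermates did not share the difference, with 4817 to 5806 at 10 weeks and 5062 to 6029 at 8 weeks. The same low level was found elsewhere only in WT mice at 4 weeks, where replicates 1 and 3 read 1876 and 1686 in TEBs and 1902 and 1797 in ducts, against 5579.9 and 7024 in replicate 2. Across the 42 captured arrays Ly6e therefore took a low level, 1561 to 1934, in 10 arrays and a high level, 4217 to 8842, in the other 32, with no array between.

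Nnat, an imprinted gene for a small membrane protein of the endoplasmic reticulum, rose by 1.30 ± 0.21 on the log2 scale (adjusted p = 0.0473). TEBs read 3692, 2757 and 2884 at 10 weeks and 1447, 955 and 1778 at 8 weeks. Ducts read 3132, 2365 and 2412 at 10 weeks and 927, 661 and 1557 at 8 weeks. Replicate 2 was the lowest mouse at 8 weeks in both structures. WT littermates were higher at both ages, 4854 to 7564 at 10 weeks and 2741 to 3411 at 8 weeks, and also rose (log2 change 1.08 ± 0.24, adjusted p = 0.0462). In sorted DN-Clim cells Nnat was 728 and 674 in basal and 69.5 and 72.2 in luminal arrays, all below the captured arrays at 10 weeks.

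Of the 4 genes that fell, Aspg, which encodes an asparaginase, had the lowest adjusted p. TEBs read 186, 233 and 184 at 10 weeks and 406, 406 and 544 at 8 weeks. Ducts read 178, 181 and 164 at 10 weeks and 328, 330.2 and 403 at 8 weeks. It fell by 1.09 ± 0.13 on the log2 scale (adjusted p = 0.0069), and replicate 3 was the highest mouse at 8 weeks in both structures. DN-Clim arrays read 125 to 182 at 4 weeks and 160 to 209 at 6 weeks, so the 8 week mice were the high ones. WT littermates read 159 to 211 at 10 weeks and 190.2 to 217 at 8 weeks, near the DN-Clim level at 10 weeks, with a log2 change of -0.16 ± 0.15 that did not pass (adjusted p = 0.648).

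Nat8l, which makes N-acetylaspartate in neurons and fat cells, read 359.9, 377 and 220.1 in TEBs at 10 weeks and 587, 532 and 772 at 8 weeks. Ducts read 215, 229 and 155 at 10 weeks and 379, 409 and 576 at 8 weeks. Within each age ducts lay below the TEB of the same number, and the closest arrays of the ages were the replicate 1 duct at 8 weeks and the replicate 2 TEB at 10 weeks. The fall of 1.09 ± 0.18 on the log2 scale only just passed (adjusted p = 0.04996). DN-Clim arrays read 143 to 249 at 4 weeks and 190 to 322 at 6 weeks, so here too the 8 week mice were the high ones. Nat8l was 55.1 and 54.4 in sorted basal and 65.8 and 47.4 in sorted luminal cells, under every captured array. In such mixed samples fewer cells of a type and less RNA per cell cannot be told apart.

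Col5a3, the alpha 3 chain of type V collagen, read 249, 235 and 225 in TEBs at 10 weeks and 442, 427 and 369 at 8 weeks. Ducts read 205, 171 and 159 at 10 weeks and 335, 337 and 321 at 8 weeks. It fell by 0.85 ± 0.11 (adjusted p = 0.00777), with TEBs above ducts of the same mouse on all 6 pairs. Ftl1, the light chain of the iron store ferritin, read 3519, 3439.8 and 3419 in TEBs at 10 weeks and 5508, 5336 and 5375 at 8 weeks. Ducts read 3006, 3249.7 and 3011 at 10 weeks and 4525, 4292 and 4834 at 8 weeks. Its fall was the smallest of the 4, 0.60 ± 0.08 on the log2 scale (adjusted p = 0.00777), with little spread inside an age. Ferritin light chain has close copies in the mouse genome, and whether its probe set tells them apart was not tested. At 4 and 6 weeks DN-Clim arrays read 309 to 483 and 262 to 369 for Col5a3, so 10 weeks was its low age. For Ftl1 they read 3470 to 4550 and 2744 to 3671. In WT littermates the log2 changes were -0.52 ± 0.13 for Col5a3 (adjusted p = 0.0653) and -0.27 ± 0.10 for Ftl1 (adjusted p = 0.239).

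The 8 further genes with the lowest p among those with lower means at 10 weeks did not pass. They were Acly, Tspan18, Ucp3, Dipk1b, Mlxipl, Crat, A530016L24Rik and Unc5a, with log2 changes between -1.36 and -0.69 and adjusted p between 0.0509 and 0.064. Mlxipl, the carbohydrate-responsive factor ChREBP, ranged from 445 to 1398 at 10 weeks and from 1318 to 2536 at 8 weeks. Crat, which moves acetyl groups onto carnitine, ranged from 1547 to 2555 at 10 weeks and from 2472 to 4169 at 8 weeks. Ucp3, a mitochondrial carrier known from muscle and brown fat, ranged from 189 to 343 at 10 weeks and from 376 to 728 at 8 weeks. Replicate 3 at 10 weeks was the lowest mouse of all 12 arrays for Mlxipl and Crat, in the TEB and the duct of its own structure. Mlxipl read 157 and 193 in sorted basal and 155 and 204 in sorted luminal cells, all below the captured arrays.

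The circadian clock is a loop in which Arntl and Clock switch on the Per and Cry genes, whose proteins then hold Arntl and Clock back, while Nr1d1 and Rora act on Arntl from the other side. Per2 and Cry1, 2 of the 17 clock genes measured, rose (0.0374% of all genes), and no other member passed. Per2 in TEBs read 1676, 1338 and 1229 at 10 weeks and 313, 470.4 and 845 at 8 weeks. In ducts it read 1658, 1587 and 1529 at 10 weeks and 319.7, 616 and 807 at 8 weeks. The mice were alike at 10 weeks and unlike at 8 weeks, where replicate 1 was the lowest and replicate 3 the highest in both structures. The log2 change was 1.52 ± 0.25, or 2.87-fold (adjusted p = 0.0473). Cry1 in TEBs read 331, 263 and 262 at 10 weeks and 167, 164 and 181 at 8 weeks. In ducts it read 335, 301 and 270.0 at 10 weeks and 162, 157 and 179 at 8 weeks. Cry1 was tight among the mice of each age, with a log2 change of 0.80 ± 0.12 (adjusted p = 0.0258).

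Of the 17 clock genes 13 had higher means at 10 weeks (47.0% of all genes), 8 with an unadjusted p under 0.05 (3.61% of all genes), and 3 of the 4 with lower means had one (6.96% of all genes). The list's median log2 change was 0.34. Members with higher means included Per3, 0.88 ± 0.24, Nfil3, 0.70 ± 0.25, and Per1, 0.45 ± 0.13, all on the log2 scale and none past the test (adjusted p = 0.164, 0.31 and 0.189). Per1 is the third member whose arrays did not overlap (0.674% of all genes lay wholly above). It ranged from 1116 to 1442 at 10 weeks and from 746 to 1089.6 at 8 weeks. Arntl, which encodes the activator BMAL1, ran the other way. In TEBs Arntl read 193, 224 and 253 at 10 weeks and 581, 487 and 236 at 8 weeks, and in ducts 200.04, 244 and 315 at 10 weeks and 569.5, 559.7 and 315 at 8 weeks. Replicates 1 and 2 at 8 weeks were above all 6 arrays at 10 weeks, and replicate 3 at 8 weeks was among them (log2 change -0.89 ± 0.23, adjusted p = 0.158). Nr1d1, the repressor REV-ERB alpha, gave -0.48 ± 0.16 (adjusted p = 0.277) and Bhlhe40, a repressor of the same loop, -0.36 ± 0.11 (adjusted p = 0.21). Dbp, an output gene of the loop, showed the same split of mice at 8 weeks, with 885, 939 and 1649 in TEBs and 634, 785 and 1581 in ducts for replicates 1, 2 and 3, against 925 to 1589.5 over the 6 arrays at 10 weeks. Without the mouse of replicate 3 at 8 weeks, 5 of the 17 passed and 11 had an unadjusted p under 0.05 upward, and without the other mice in turn 0 or 1 passed and 6 to 9 had one. Of all 13362 genes, 317 had such a p upward without that mouse and 376 to 691 without the others. Without that mouse 7 of all genes passed higher and 8 lower.

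The clock genes of WT littermates, on arrays of their own, are given beside these. Cry1 rose in WT to 296 to 327 at 10 weeks, against 148 to 173 at 8 weeks (log2 change 0.95 ± 0.13, adjusted p = 0.00226). Per1 rose to 1440.4 to 1641 at 10 weeks, against 722 to 898 at 8 weeks (log2 change 0.92 ± 0.15, adjusted p = 0.00777). Bhlhe40 fell to 563 to 646 at 10 weeks, against 1209 to 1439 at 8 weeks (adjusted p = 7.20e-04). Per2 in WT was 1610.3 to 1699 at 10 weeks and 824 to 1071 at 8 weeks, without overlap but not past the test (adjusted p = 0.19). No clock gene passed the test of a different change in DN-Clim and WT. For Per2 that difference was 0.71 ± 0.35 (adjusted p = 0.657) and for Cry1 -0.15 ± 0.17 (adjusted p = 0.837). The sources used here give no time of day for the dissections.

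**Figure D2:**
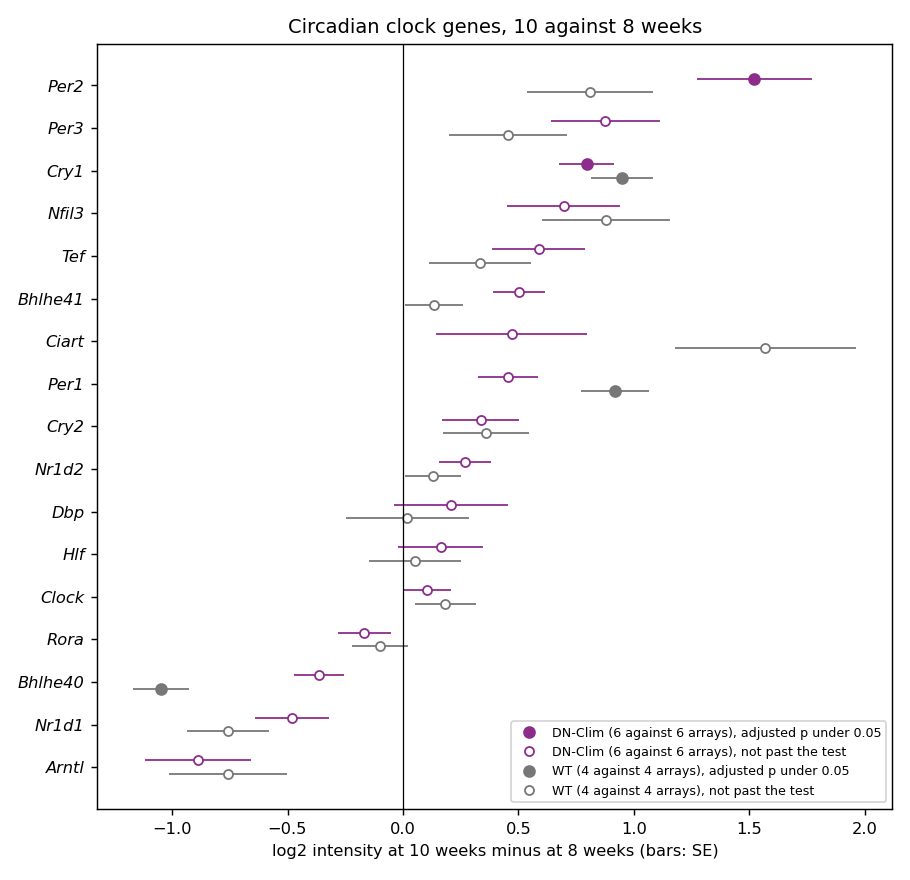
Log2 intensity at 10 weeks minus that at 8 weeks for the 17 clock genes measured, with SE bars, for DN-Clim (above in each row, 6 against 6 arrays) and WT (below, 4 against 4 arrays). Filled points passed the test. Per2 and Cry1 are filled in DN-Clim, Cry1, Per1 and Bhlhe40 in WT, and Arntl lies left of 0 in both.

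Start-site regions of 4 of these genes are shown, picked as genes on opposite sides of the loop whose region holds the letters marked. Of the 4, only Cry1 passed the test in DN-Clim. They are RefSeq sequences of GRCm38.p6, 250 bases before to 50 after an annotated start, read 5′ to 3′ on the strand of the gene, and 15 of the 17 clock genes were in that set. Per2 was not in it. Capitals mark the E-box letters CACGTG in Cry1 and Per1, the D-box letters TTATGTAA in Per3 and the letters TAGGTCA of a ROR and REV-ERB element in Arntl, each searched on both strands.
Cry1, chr10:85185005-85185304, minus strand: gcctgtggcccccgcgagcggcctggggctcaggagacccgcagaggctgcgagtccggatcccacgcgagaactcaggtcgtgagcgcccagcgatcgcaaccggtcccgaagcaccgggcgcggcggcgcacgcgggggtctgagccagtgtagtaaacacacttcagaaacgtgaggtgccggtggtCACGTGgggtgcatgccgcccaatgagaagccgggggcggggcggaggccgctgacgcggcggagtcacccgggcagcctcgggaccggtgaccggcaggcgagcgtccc
Per1, chr11:69098699-69098998, plus strand: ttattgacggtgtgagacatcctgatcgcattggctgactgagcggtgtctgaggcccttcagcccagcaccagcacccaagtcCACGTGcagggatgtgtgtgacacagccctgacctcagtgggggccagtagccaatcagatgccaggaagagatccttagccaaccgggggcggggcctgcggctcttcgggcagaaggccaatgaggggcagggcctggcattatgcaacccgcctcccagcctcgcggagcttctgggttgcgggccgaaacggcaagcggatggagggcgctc
Per3, chr4:151044616-151044915, minus strand: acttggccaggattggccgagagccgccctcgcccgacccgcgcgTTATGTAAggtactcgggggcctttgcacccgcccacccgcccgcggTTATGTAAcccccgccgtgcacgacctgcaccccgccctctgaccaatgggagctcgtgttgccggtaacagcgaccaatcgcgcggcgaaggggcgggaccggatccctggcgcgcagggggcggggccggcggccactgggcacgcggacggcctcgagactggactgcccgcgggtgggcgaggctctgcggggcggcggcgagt
Arntl, chr7:113207261-113207560, plus strand: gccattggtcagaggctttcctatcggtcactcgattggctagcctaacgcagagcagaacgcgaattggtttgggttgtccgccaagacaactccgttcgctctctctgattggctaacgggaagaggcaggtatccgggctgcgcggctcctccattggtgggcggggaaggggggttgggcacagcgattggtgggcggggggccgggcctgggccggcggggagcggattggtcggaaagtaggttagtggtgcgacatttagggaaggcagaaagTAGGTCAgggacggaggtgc

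The E-box began 60 bases before the start of Cry1 and 166 before that of Per1, the D-boxes 205 and 158 before that of Per3, and the Arntl match at base 31 after the start. Per1 and Arntl have a second start region in the set, without these letters. CACGTG was in 5 of the 15 clock genes (Bhlhe41, Ciart, Cry1, Per1 and Tef) and in 7.15% of all 32851 regions. TTATGTAA was in 1 of the 15 and in 0.938% of all regions, and TAGGTCA in 2 of the 15, Arntl and Nfil3, and in 2.61% of all regions. A gene was counted if any of its regions held the letters, while the shares are over single regions. These are matches of letters and not measured binding.

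Genes for making fatty acids and cholesterol lay lower at 10 weeks without passing the test. Of 21 measured, 18 had lower means, 13 of them with an unadjusted p under 0.05 (6.96% of all genes), 0 passed by limma, and the median log2 change was -0.46. Acly, which makes cytosolic acetyl-CoA from citrate, was the closest. In TEBs it read 3050.4, 5191 and 1904 at 10 weeks and 7069, 8650.3 and 7470.4 at 8 weeks, and in ducts 2543, 3593 and 1713 at 10 weeks and 5523, 7699.6 and 7082 at 8 weeks. The arrays did not overlap, and replicate 3 at 10 weeks was the lowest mouse (log2 change -1.36 ± 0.23, adjusted p = 0.0509). DN-Clim arrays read 1958 to 2664 at 4 weeks and 2330 to 4471 at 6 weeks, so the 8 week level was the high one in DN-Clim. Acly passed under 5 of 8 other settings, with adjusted p of 0.00432 to 0.564 over the 8.

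Arrays also did not overlap for Elovl6, an elongase of long-chain fatty acids, for Me1, a source of NADPH, and for Acaca and Fasn, the enzymes that commit acetyl-CoA to fatty acids and build the chain. With Acly, 5 of the 21 thus lay wholly lower (1.35% of all genes). Fasn ranged from 4698 to 11409 at 10 weeks and from 11636 to 14129.7 at 8 weeks. Elovl6 ranged from 1061 to 6026 at 10 weeks, where replicate 3 read 1474 in the TEB and 1061 in the duct, and from 6345 to 8366 at 8 weeks. At 4 and 6 weeks DN-Clim arrays read 5432 to 7970 and 6883 to 7842 for Fasn, and 1363 to 2416 and 2597 to 5297 for Elovl6. Me1 and Acaca were also lower at those ages than at 8 weeks, so 8 weeks was the high age of these genes in DN-Clim. Their log2 changes were -1.23 ± 0.36 for Elovl6, -1.14 ± 0.27 for Me1, -0.99 ± 0.23 for Acaca and -0.72 ± 0.19 for Fasn (adjusted p between 0.122 and 0.209). Thrsp, a lipogenic gene of the liver and fat, gave -1.22 ± 0.30 with overlap. Cholesterol enzymes were mixed, from Idi1 at -0.64 ± 0.27 to Hmgcs1 at 0.34 ± 0.18, and Scd1, the stearoyl-CoA desaturase, was at -0.10 ± 0.08. Without replicate 3 at 10 weeks 8 of the 21 had an unadjusted p under 0.05 downward, and without the other mice in turn 10 to 15. Of all 13362 genes, 838 had one downward without replicate 3 at 10 weeks and 596 to 1082 without the others. Without replicate 2 at 10 weeks 4 of the 21 passed, and of all 13362 genes 6 passed higher and 45 lower.

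WT littermates had Acly at 1615 to 2167 at 10 weeks and 4667 to 5576 at 8 weeks, and there it fell (log2 change -1.47 ± 0.26, adjusted p = 0.0121). Scd2 also fell in WT, to 1963 to 2151 at 10 weeks against 3934 to 4849.9 at 8 weeks (adjusted p = 0.042). No gene of the list passed the test of a different change by genotype, and that difference for Acly was 0.10 ± 0.33.

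**Figure D3:**
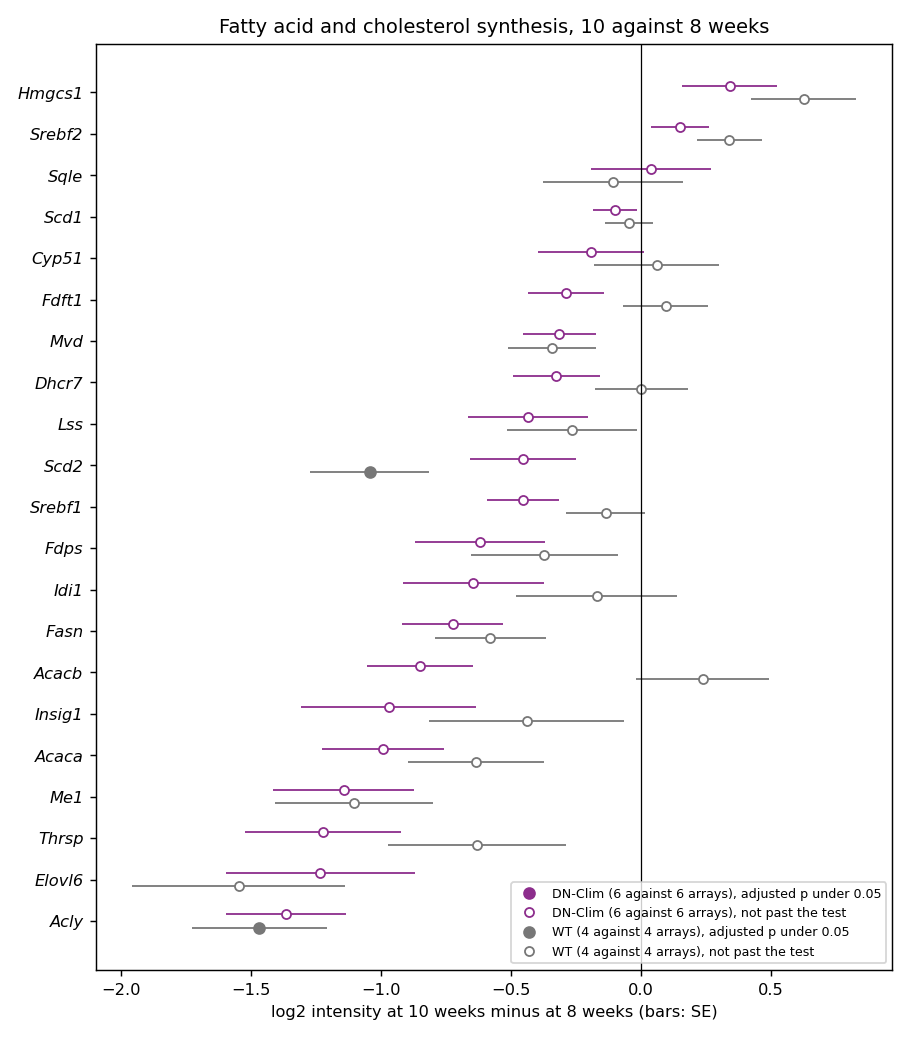
Log2 intensity at 10 weeks minus that at 8 weeks for 21 genes of fatty acid and cholesterol synthesis, with SE bars, for DN-Clim (above in each row) and WT (below). Filled points passed the test, which were Acly and Scd2 in WT and none in DN-Clim. Acly, Elovl6, Thrsp and Me1 lie farthest left in DN-Clim.

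Adipocyte genes had lower means as well. Of the 16 adipocyte genes 13 had lower means at 10 weeks (53.0% of all genes) and 5 an unadjusted p under 0.05 (6.96% of all genes), none passing, with a median log2 change of -0.22. That median was -0.10, with 2 such members (838 of all 13362 genes), without replicate 3 at 10 weeks and -0.13 without replicate 3 at 8 weeks. Without replicate 2 at 10 weeks 1 member passed, and of all 13362 genes 6 passed higher and 45 lower. Their summed intensity was 47984 to 79603 at 10 weeks and 60267 to 88330.2 at 8 weeks, and replicate 3 at 10 weeks gave the lowest TEB and the lowest duct of its age. Adipoq, which encodes the fat hormone adiponectin, gave -0.14 ± 0.17 and Retn, resistin, -0.75 ± 0.18. Fasn read 807 and 956 in sorted basal and 1263 and 1494 in sorted luminal cells and Thrsp 71.1 and 88.1 and 73.7 and 68.1, well under the captured arrays. The part of fat cells in the lipid synthesis values, and in those of Nat8l, Mlxipl and Crat, was not tested.

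Matrix genes likewise had lower means. Of 22 fibroblast and matrix genes 19 had lower means (53.0% of all genes), 9 with an unadjusted p under 0.05 (6.96% of all genes), 0 passed, and the median was -0.24. It was -0.11, with 14 of 22 lower and 1 passing, without replicate 3 at 10 weeks and -0.12 without replicate 2 at 8 weeks. Of all 13362 genes, 16 passed higher and 12 lower without replicate 3 at 10 weeks. Fn1, fibronectin, ranged from 1479.9 to 4122 at 10 weeks and from 4249.7 to 5174 at 8 weeks with no overlap (log2 change -0.72 ± 0.21, adjusted p = 0.195). Col1a1 gave -0.47 ± 0.14 and Col3a1 -0.48 ± 0.11. The fibroblast list and Col5a3 therefore lay lower together, and the part of stromal content in Col5a3 was not tested. In WT littermates the list median was -0.29 and 3 of the 22 passed lower (0.524% of all genes). Fn1 there was 2385 to 4452 at 10 weeks and 5165 to 6054 at 8 weeks. The test of a different change by genotype was passed by 0 of the 22.

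Cell cycle genes had lower means at 10 weeks for 39 of 39 measured, against 53.0% of all genes, with a median log2 change of -0.97. An unadjusted p under 0.05 was reached by 20 (6.96% of all genes) and the adjusted test by 0, and no member separated the arrays. Mki67, the proliferation antigen Ki-67, read 221.3, 146 and 575 in TEBs at 10 weeks and 1258, 527 and 338 at 8 weeks. In ducts it read 185, 128 and 201 at 10 weeks and 1159, 233 and 323 at 8 weeks. Replicate 1 at 8 weeks stood above all others in both structures, and replicate 3 at 10 weeks was the highest of its age in the TEB. Cdk1, the mitotic kinase, showed the same mouse, with 929, 306 and 184 in TEBs and 1063, 135 and 237 in ducts at 8 weeks, against 73.9 to 224 over the arrays at 10 weeks. Hmmr, Top2a and Ube2c, genes of mitosis and its DNA untangling, gave log2 changes of -1.72 ± 0.78, -1.52 ± 0.63 and -1.41 ± 0.59 (adjusted p between 0.417 and 0.457).

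The list mean on the log2 scale was 7.16, 6.92 and 7.75 in TEBs at 10 weeks and 8.99994, 7.99 and 7.11 at 8 weeks. It was 7.09, 6.78 and 7.01 in ducts at 10 weeks and 9.01, 7.19 and 7.50 at 8 weeks. Without the mouse of replicate 1 at 8 weeks 2 of the 39 had an unadjusted p under 0.05 (596 of all 13362 genes downward), 32 had lower means and the median was -0.39. That mouse lay inside the range of the 4 DN-Clim arrays at 6 weeks, 8.60 to 9.45, and WT littermates at 8 weeks gave 7.27 to 7.50. Without replicate 2 at 10 weeks 3 members had an unadjusted p under 0.05 (1082 of all genes downward), and without replicate 1 at 10 weeks 9 (733 of all genes downward).

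**Figure D4:**
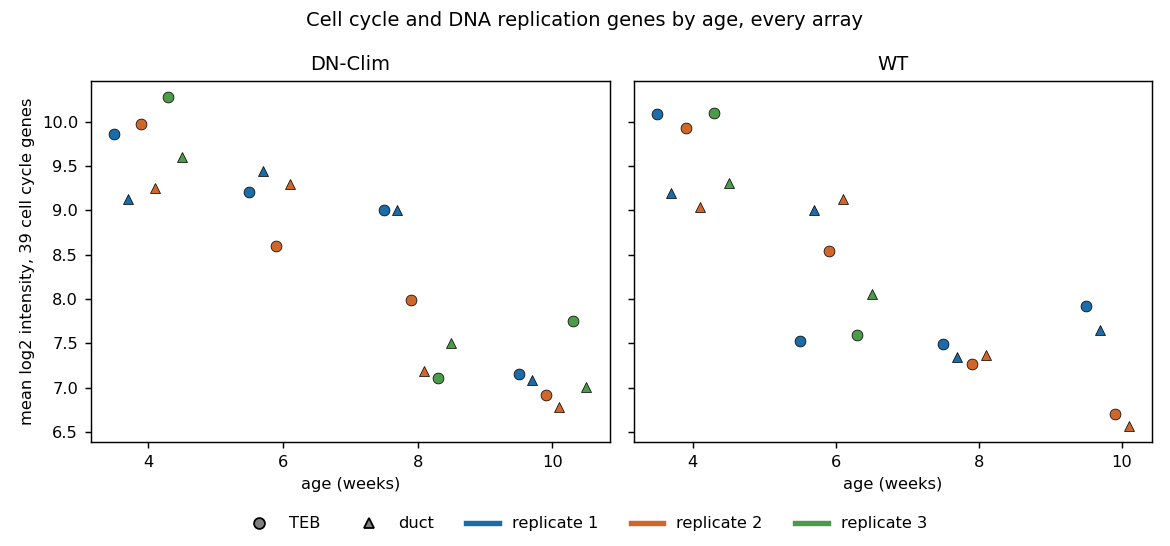
Mean log2 intensity of 39 cell cycle and DNA replication genes on every captured array, by age in weeks, for DN-Clim (left) and WT (right). Circles are TEBs, triangles ducts and colours replicate numbers. Replicate 1 of DN-Clim at 8 weeks lies at 8.99994 in the TEB and 9.01 in the duct, above the other DN-Clim arrays at 8 and 10 weeks.

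Genes of hormone-sensing luminal cells differed among themselves. Cited1, a transcriptional coregulator of estrogen-responsive cells, read 557, 370.5 and 728 in TEBs at 10 weeks and 1188, 1209.8 and 2181 at 8 weeks. In ducts it read 277, 367 and 273 at 10 weeks and 1003, 1003 and 2096 at 8 weeks. The arrays did not overlap and replicate 3 was highest at 8 weeks, but the log2 change of -1.77 ± 0.33 missed the test (adjusted p = 0.0642). Over the ages DN-Clim arrays read 3447 to 4702 at 4 weeks, 2533 to 3673 at 6 weeks, 1003 to 2181 at 8 weeks and 273 to 728 at 10 weeks. Pgr, the progesterone receptor, had higher means at 10 weeks, 2871 to 5440.1 against 1744 to 4132 at 8 weeks with replicate 2 the highest mouse at 8 weeks (log2 change 0.89 ± 0.21, adjusted p = 0.134). Of 10 hormone-sensing genes 0 passed, 1 had an unadjusted p under 0.05 upward (3.61% of all genes) and 2 downward (6.96% of all genes). Without replicate 2 at 8 weeks or replicate 3 at 10 weeks 1 of the 10 passed. Of all 13362 genes, 7 passed higher and 16 lower in the first case, and 16 higher and 12 lower in the other. Cish, a feedback inhibitor of prolactin and cytokine signalling through STAT5, ranged from 494 to 1496 at 10 weeks and from 299.6 to 417 at 8 weeks without overlap, replicate 2 being the highest mouse at 10 weeks (log2 change 1.11 ± 0.27, adjusted p = 0.137). In WT littermates these genes moved the same way. Cited1 was 588 to 1054 at 10 weeks against 1325 to 1587 at 8 weeks, Pgr 3423 to 3710 against 1956 to 2460, and Cish 304 to 664 against 160 to 247.

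Tsc22d3, a glucocorticoid-induced leucine zipper gene, read 1845, 773 and 845 in TEBs at 10 weeks and 439, 509 and 561 at 8 weeks. In ducts it read 1846, 781 and 892 at 10 weeks and 372, 421 and 757 at 8 weeks. Replicate 1 at 10 weeks was far above the other mice, and the arrays did not overlap (log2 change 1.12 ± 0.28, adjusted p = 0.137). The other 11 glucocorticoid-responsive genes were mixed, with a list median of 0.01 and 0 passing. In WT littermates 2 of the 12 rose (0.382% of all genes), among them Tsc22d3 at 2071 to 2274 at 10 weeks against 711 to 921 at 8 weeks (adjusted p = 0.0381), and the median was 0.66.

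No difference was detected in the cofactors that DN-Clim interferes with or in their partners. Of 13 Clim and LIM partner genes none had an unadjusted p under 0.05 and none passed limma's test, with a median of 0.02. Ldb1 ranged from 3442 to 5775 at 10 weeks and from 3729 to 4213 at 8 weeks (log2 change 0.14 ± 0.13), Ldb2 gave 0.02 ± 0.30, and Lmo4, a LIM-only protein of the mammary epithelium, -0.13 ± 0.16. Fgfr2, a receptor that branching needs, gave -0.11 ± 0.21, and Krt14, whose promoter drives the transgene, -0.06 ± 0.18. Whether the probe sets of Ldb1 and Ldb2 also read the transgene was not tested.

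Other cell types that the captured tissue could hold gave medians of -0.23 for 17 endothelial genes, -0.27 for 8 pericyte and vascular smooth muscle genes, 0.15 for 13 lymphocyte genes and 0.40 for 13 skeletal muscle genes, with 0 passing in each. Without replicate 3 at 10 weeks the endothelial and pericyte medians turned to 0.05 and 0.08, and without replicate 2 at 10 weeks they were -0.43 and -0.49. Ckm, a muscle creatine kinase, was 2269 in the replicate 3 TEB at 10 weeks, the array with the highest skeletal muscle mean of the 12. Of 27 immediate-early genes, which respond to handling of tissue within minutes, 4 had an unadjusted p under 0.05 upward (3.61% of all genes), 1 downward (6.96% of all genes) and 0 passed, with a median of 0.12. The median was -0.02 without replicate 1 at 10 weeks, and 9 had such a p upward without replicate 3 at 10 weeks (691 of all 13362 genes), with a median of 0.22.

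Other lists had medians near 0. They were -0.01 for 16 basal myoepithelial genes, 0.10 for 13 pan-luminal genes, -0.08 for 38 Wnt pathway genes and 0.03 for 29 ribosome biogenesis genes, with 0 members of each passing and 0 to 4 at an unadjusted p under 0.05 in 1 direction (3.61% of all genes upward and 6.96% downward). Without single mice the basal median ran from -0.16 to 0.17 and the pan-luminal from -0.05 to 0.19. Of 34 oxidative phosphorylation genes 32 had lower means (53.0% of all genes), with a median of -0.20, 3 at an unadjusted p under 0.05 (6.96% of all genes) and 0 passing. Without replicate 3 at 10 weeks that median was -0.07.

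Taken apart, TEBs gave 3 calls (0.0225%), Ly6e up and Aspg and Ftl1 down, and ducts gave 4 (0.0299%), Ly6e and Mfsd2a up and Aspg and Col5a3 down. No gene passed the test that the change differed between TEBs and ducts, and 108 had an unadjusted p under 0.05 (0.808%). For the 9 called genes the log2 changes in TEBs and in ducts were close, such as 2.08 and 2.23 for Mfsd2a, 1.49 and 1.55 for Per2 and -0.64 and -0.56 for Ftl1. TEB and duct came from the same mice, so these pairs are not separate evidence on the litters. Among list members Cited1 differed by 0.62 ± 0.32 between the structures (adjusted p = 0.999976), its TEB change being -1.46 and its duct change -2.08.

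Over the same ages WT littermates gave 121 calls (0.906%), 51 up (0.382%) and 70 down (0.524%), with 4 arrays per age. These came from a fit of WT and DN-Clim arrays together. The DN-Clim calls came from the DN-Clim arrays alone, so the numbers of calls are not from the same test. The change differed between DN-Clim and WT for 5 genes (0.0374%), Ifi202b, R3hdml, Atp6v0d2, Ly6e and Itgb3, and for 1043 at an unadjusted p under 0.05 (7.81%). For Ly6e the difference was 1.83 ± 0.25 on the log2 scale (adjusted p = 0.00864), and it lay in the DN-Clim mice at 8 weeks. The other 4 passed the age test in WT and not in DN-Clim.

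Ifi202b, an interferon-inducible gene of a family with close copies, was 112 to 134 in DN-Clim at 10 weeks and 102 to 188 at 8 weeks. WT littermates read 212 to 318 at 10 weeks and 15.3 to 21.7 at 8 weeks. The 4 WT arrays at 8 weeks were below all others shown. Only the 4 WT arrays at 10 weeks reached the minimum of 200, so Ifi202b was tested through the group in which it is high. Its difference is read as a direction only, not as a size. R3hdml was 1239 to 2187 in DN-Clim at 10 weeks and 1049 to 2231 at 8 weeks. WT littermates read 701 to 1634 at 10 weeks and 124 to 169.6 at 8 weeks, so again the WT arrays at 8 weeks were the low ones (difference -2.61 ± 0.38, adjusted p = 0.0131).

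Atp6v0d2, a proton pump subunit known from osteoclasts and macrophages, was 46.4 to 65.8 in DN-Clim at 10 weeks and 41.3 to 52.9 at 8 weeks. WT littermates read 49.5 to 55.0 at 10 weeks and 109 to 666 at 8 weeks. It too was tested only through the group in which it is high, WT at 8 weeks, all other captured arrays reading 74.2 or less. The difference of Atp6v0d2 is likewise read as a direction only. Itgb3, an integrin beta chain, was 252 to 288 in WT at 10 weeks and 369 to 541 at 8 weeks (difference 0.76 ± 0.13, adjusted p = 0.0415). Macrophage genes moved beside them, 3 of 13 falling in WT (0.524% of all genes) with a median of -0.73, while in DN-Clim 0 passed and the median was 0.11. In the test of a different change by genotype 0 of the 13 passed, and 7 had an unadjusted p under 0.05 (7.81% of all genes). Their mean log2 level was 8.65 to 8.89 in DN-Clim at 10 weeks and 8.27 to 9.15 at 8 weeks, and 8.81 to 9.02 in WT at 10 weeks and 9.43 to 9.64 at 8 weeks, and their part in these 2 genes was not tested. Without the 2 WT duct arrays whose label fields disagree on the structure, Ly6e, R3hdml, Atp6v0d2 and Itgb3 did not pass. The 1 gene of the 5 that did, Ifi202b, had entered the test through the group in which it is high.

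**Figure D5:**
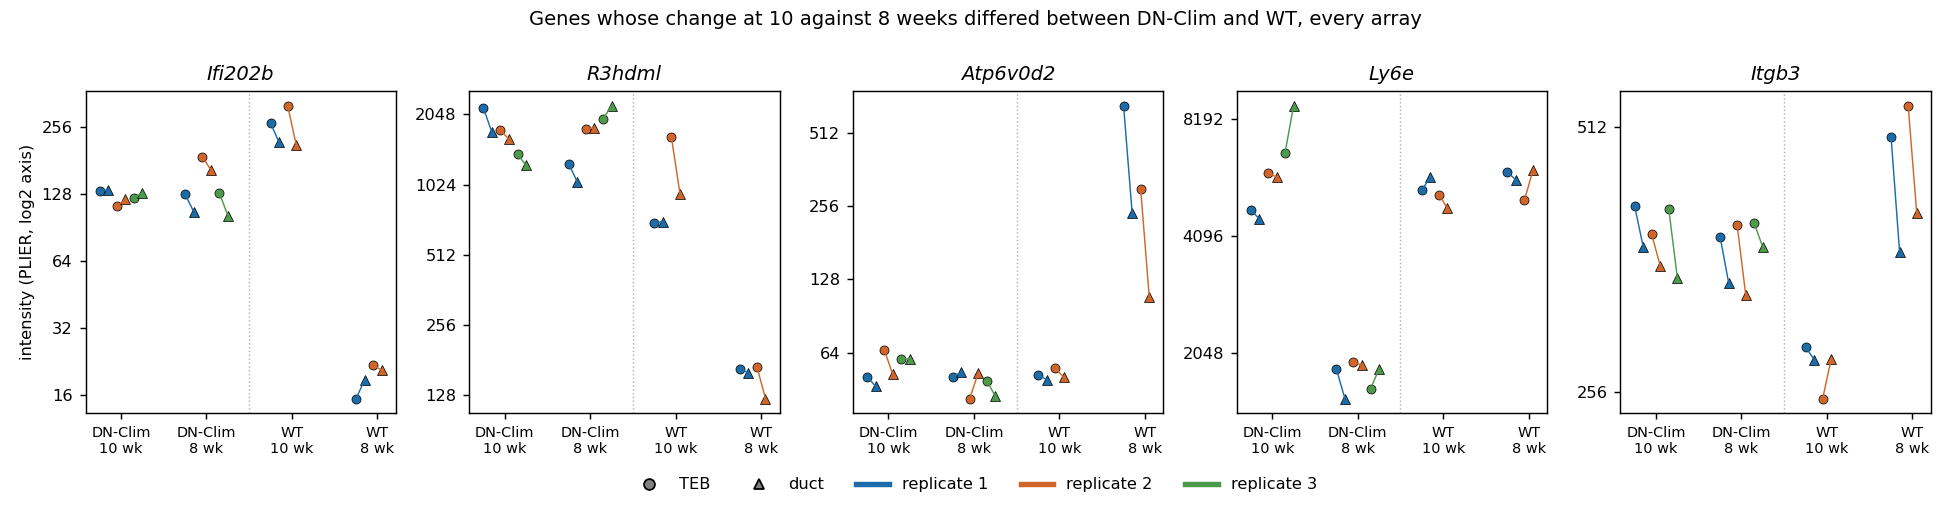
Intensity (log2 axis) of the 5 genes whose change at 10 against 8 weeks differed between DN-Clim and WT, on every array of these ages. Circles are TEBs, triangles are ducts, colours are replicate numbers and lines join the TEB and duct of 1 number. Ly6e is low in DN-Clim at 8 weeks, Ifi202b and R3hdml are low and Atp6v0d2 is high in WT at 8 weeks.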

How the data were processed

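RNA from 50 mammary samples of DN-Clim and WT mice (42 laser captured, 8 sorted) was hybridised by the authors to Affymetrix Mouse Gene 1.0 ST arrays. Values were deposited as linear PLIER intensity per probe set, with any scaling between arrays not stated. The sources used here do not give the PLIER version. The number of arrays limits the precision.

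Intensities under 1 were set to 1, log2 was taken, and probe sets were kept if 200 or more on at least 1 captured array (22693 of 35557). Of all 35557, 21789 carried 1 symbol in the platform annotation, 1621 several and 12147 none. Only single-symbol probe sets were named, and the kept probe set with the highest mean stood for its gene, which left 13362 genes. Age was tested in limma 3.58.1 (R 4.3.3) with structure as covariate, moderated variance with trend, a random mouse effect (duplicateCorrelation, correlation 0.569) and Benjamini-Hochberg adjustment over all genes. TEBs alone and ducts alone were tested by a fit of group means on the 12 arrays (correlation 0.543). WT changes and the genotype difference came from a separate fit of group means on the 12 DN-Clim and 8 WT arrays (correlation 0.493). Passing in DN-Clim and passing in WT are thus results of different fits. Changes are differences of log2 means, 10 weeks minus 8 weeks.

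Deviations from group means of TEB and duct of 1 age and number correlated at 0.51 to 0.84 (6 pairs), against -0.56 to -0.04 for different numbers (12 pairs), which is the basis of the mouse block. The same number at both ages gave -0.08 to 0.11 (6 pairs), so numbers do not pair the ages. The sources state only littermates, so p-values measure the spread between these samples. For 2 WT duct arrays another label field names the TEB; title and tissue were followed.

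Members and the 36 gene lists were chosen with earlier results of these data known. Named genes were the largest changes past the test, up to 12 each way, the 8 lowest p downward since fewer than 5 genes fell, up to 4 members per list by size of change, Ldb1, Ldb2, Lmo4, Krt14 and Fgfr2, and up to 5 genes that differed by genotype or structure. Per1, Nr1d1, Bhlhe40, Dbp, Fasn, Idi1, Hmgcs1, Scd1, Scd2, Krt8 and other list members outside that rule were named after their values were seen. The fit was tested on simulated data. Alternatives were other scalings, filters, blocks and sample sets, and leaving out arrays or mice. Figures used matplotlib 3.10.9 in Python 3.11.15.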

Additional observations from a re-analysis of the deposited data

Results flagged for a closer look

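The change at 10 against 8 weeks differed between DN-Clim and WT, by limma's interaction test over all 13362 genes, for 5 genes. On the log2 scale, DN-Clim minus WT, the difference was 1.83 for Ly6e, -3.82 for Ifi202b, -2.61 for R3hdml, 2.59 for Atp6v0d2 and 0.76 for Itgb3. Ifi202b reached the minimum of 200 only in WT at 10 weeks, and Atp6v0d2 only in WT at 8 weeks. Each thus entered the test through the group in which it is high. The values -3.82 for Ifi202b and 2.59 for Atp6v0d2 are therefore read for their direction only, not as sizes. Ly6e passed without each of the 20 arrays in turn, R3hdml without 19 and Itgb3 without 2. Passes of Ifi202b and Atp6v0d2 are no support, since the filter let each in through the group in which it is high.

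For Aspg the replicate 2 TEB was the highest of the 6 DN-Clim arrays at 10 weeks, at 233, and its gap to the next array took 0.644 of the range of the group, past the critical value for 6 values (0.625). It was 1 of 26 such groups of 6 arrays examined. Chance marks about 1 in 20 where the 6 values are independent. These were TEB and duct arrays taken as pairs from the same mice, so that rate need not hold here. The replicate 2 TEB lay toward the arrays at 8 weeks and still below all of them.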

How the results depend on the processing

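With 9 genes past the test as reported, quantile normalization gave 5, no filter on low values 45, no mouse block 244, the mean of TEB and duct per mouse 0, and all 22 captured DN-Clim arrays in the fit 161. Cutoffs given in the study, p under 0.01 without adjustment and 1.5-fold, gave 209 with limma between the ages. The study applied its cutoffs with CyberT between genotypes, for captured arrays in at least 2 time points, so 209 is not a count by its method. Replicate numbers do not pair the ages. The replicate block, fitted with the mouse block, gave 136 calls, 51 higher and 85 lower, and kept all 9. Quantile normalization kept 5 of the 9, and the runs without a filter and without the mouse block kept 9 each. Leaving out single arrays or mice gave 3 to 51 calls. The count was 3 without replicate 1 at 8 weeks, 23 without replicate 2 and 15 without replicate 3 at that age, and 6, 51 and 28 without replicates 1, 2 and 3 at 10 weeks. With no filter TEBs alone gave 5 and ducts alone 9, and leaving out arrays gave 0 to 2 in TEBs and 0 to 4 in ducts. The genotype difference gave 1 without the 2 WT duct arrays of conflicting labels, and 2 to 5 when arrays were left out in turn, 2 without the replicate 1 WT TEB and 3 without the replicate 1 WT duct at 8 weeks. Among single genes named, the sign turned for R3hdml, Ldb2 and Krt14. R3hdml was 0.0032 with a common mean and variance and -0.0758 to 0.0707 with arrays left out, Ldb2 -0.0903 to 0.110 and Krt14 -0.0956 to 0.000225. The cause of these differences was not tested, apart from the fewer samples or the other number of genes that a setting itself brings. With 3 mice per age, calls near the threshold depend on single mice, and signal over background was not tested, since only summarised intensities were used.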
